A study of Mus musculus with 6 samples.

Results

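Hyaluronan is a long sugar chain of the extracellular matrix, and 6 genes that make it or bind it were followed here in regenerating mouse muscle. The genes were *Has1*, *Has2*, *Ugdh*, *Gfpt2*, *Ptx3*, and *Tnfaip6*, chosen by symbol among the 12436 genes with values, and each had 1 row. Single-cell RNA sequencing was done on the right tibialis anterior muscle (TAM) of male mice, 3 to 5 months old. They came from a cross of *Fucci2aR* with *Pax7*-Cre mice and were negative for Cre. The *Fucci2aR* line carries a fluorescent cell cycle reporter at *ROSA26*. Hypothyroid mice ate an iodine-deficient diet with 0.15% propylthiouracil (PTU), which blocks thyroid hormone synthesis, from before injury until the muscle was taken. Control mice ate the matched diet with iodine and without PTU. TAM was taken uninjured (day 0) or at 5 or 14 days after injection of cardiotoxin (dpi), a snake venom toxin that destroys muscle fibres. Each of the 6 combinations of diet and day was 1 library of cells pooled from 3 mice, so no difference between conditions could be tested. Muscle was digested with collagenase and Dispase, and red cells and dead cells were removed, so whole fibres were not measured.

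Hyaluronan is built at the cell membrane by the hyaluronan synthases, which join UDP-glucuronic acid and UDP-N-acetylglucosamine and push the growing chain out of the cell. Both sugars must be supplied by the cell, so enzymes that make them are needed for synthesis. Outside the cell, the chain is cross-linked by proteins such as TSG-6 (encoded by *Tnfaip6*), which moves heavy chains of inter-alpha-inhibitor onto it, and pentraxin 3 (*Ptx3*), which holds those heavy chains together. In skeletal muscle, hyaluronan lies in the connective tissue around fibres, where fibro-adipogenic progenitors (FAPs), the PDGFRα+ mesenchymal cells of the interstitium, are a known source. TSG-6 and pentraxin 3 are also induced by inflammatory signals in stromal cells.

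*Has1* (ENSMUSG00000003665.8; chromosome 17, 18063585 to 18075467, mm39) and *Has2* (ENSMUSG00000022367.8; chromosome 15, 56529023 to 56557935) encode synthases. *Ugdh* (ENSMUSG00000029201.15; chromosome 5, 65570564 to 65593292) encodes the dehydrogenase that makes UDP-glucuronic acid. *Gfpt2* (ENSMUSG00000020363.7; chromosome 11, 49685005 to 49729440) encodes an isoform of the enzyme that opens the hexosamine pathway to UDP-N-acetylglucosamine. *Ptx3* (ENSMUSG00000027832.6; chromosome 3, 66127331 to 66133226) and *Tnfaip6* (ENSMUSG00000053475.6; chromosome 2, 51928021 to 51946698) encode the matrix proteins. All 6 are annotated as protein-coding.

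The promoters of 4 of these genes are shown, because *Ugdh* and *Gfpt2* moved together over time, *Tnfaip6* had the largest diet ratio among the 6, and *Has1* is the synthase with a ratio past 2-fold over time. Each is the 250 bases before the start of the gene, 5′ to 3′ on the gene's strand, from RefSeq on GRCm38.p6, a different build from the coordinates above. The capitals mark matches to the 5 motifs searched on both strands.
Ugdh, chr5:65435843-65436092, minus strand: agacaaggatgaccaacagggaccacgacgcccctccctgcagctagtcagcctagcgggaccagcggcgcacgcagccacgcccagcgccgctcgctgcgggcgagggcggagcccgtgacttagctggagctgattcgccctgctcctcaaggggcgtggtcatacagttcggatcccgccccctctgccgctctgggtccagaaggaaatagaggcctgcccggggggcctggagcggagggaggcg
Gfpt2, chr11:49793905-49794154, plus strand: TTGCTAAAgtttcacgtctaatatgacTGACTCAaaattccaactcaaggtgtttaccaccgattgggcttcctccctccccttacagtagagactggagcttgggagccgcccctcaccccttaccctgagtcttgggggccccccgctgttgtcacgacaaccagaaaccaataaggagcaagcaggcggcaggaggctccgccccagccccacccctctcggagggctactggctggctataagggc
Has1, chr17:17855189-17855438, minus strand: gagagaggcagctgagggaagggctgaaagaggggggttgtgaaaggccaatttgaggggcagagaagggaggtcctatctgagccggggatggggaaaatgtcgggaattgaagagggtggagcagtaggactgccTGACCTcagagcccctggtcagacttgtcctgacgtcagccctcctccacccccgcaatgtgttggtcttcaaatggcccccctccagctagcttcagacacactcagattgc
Tnfaip6, chr2:52037863-52038112, plus strand: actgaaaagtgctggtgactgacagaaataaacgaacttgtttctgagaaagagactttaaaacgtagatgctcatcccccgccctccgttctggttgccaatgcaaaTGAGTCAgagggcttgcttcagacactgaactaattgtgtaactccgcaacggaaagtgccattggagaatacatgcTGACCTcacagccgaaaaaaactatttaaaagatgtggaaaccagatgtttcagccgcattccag
The table of promoters held 5 of the 6 genes, without *Has2*. An AP-1 motif (TGANTCA, in 6.75% of 32851 promoters) was present in *Gfpt2* as TGACTCA and in *Tnfaip6* as TGAGTCA. A nuclear receptor half-site (AGGTCA, 14.0% of promoters) was present on the opposite strand, read as TGACCT, in *Has1* and *Tnfaip6*. A C/EBP type motif (TTGCNNAA, 9.56%) matched in *Gfpt2* and, as TTGTGCAA, in *Ptx3*. The bases after the start matched an annotated transcript for the other genes but not for *Ptx3*, so its window is less certain. None of the 5 promoters held the NF-κB type motif (GGG, any pair of bases, and TTTCC, 1.41%) or TATAAA (12.4%), and *Ugdh* held no match to any of the 5. No matches overlapped. G and C made up 69.2% of the *Ugdh* window and 44.4% of that of *Tnfaip6*. Each match is a run of letters, not a binding site.

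The deposited files mix cells of more than 1 sample. Cell barcodes in each file ran in alphabetical order and then started again, and the columns up to that restart were taken, which gave 11207 of 20269 (the first runs). Of the first-run cells, 1152 of the 1650 labelled hypothyroid at 14 dpi also stood in the file of the uninjured control, and 528 of the 2428 labelled control at 5 dpi also stood in the file of the uninjured hypothyroid sample. Whether a first run belongs to the condition on its label could not be checked. Between first runs of different libraries, 0 to 6 barcodes of a library were shared. Libraries held 2283739 to 23496529 UMIs, where a UMI (unique molecular identifier) stands for 1 captured RNA molecule, with a median of 3634 to 8055 UMIs per cell. Levels below are CPM, the UMIs of a gene after scaling the pooled cells to 1000000 UMIs in all. Intervals in parentheses are 95% limits of counting error only and do not cover differences between mice or libraries. Since the method reads the 3′ end of each RNA, levels were compared between samples and cell types, not between genes.

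All 6 genes were expressed mainly by FAP-like cells, the cells in which FAP markers such as *Pdgfra*, *Dcn*, and *Col1a1* led over 11 other marker lists. These were 4708 of the 11207 cells, with 752, 416, and 1557 in the control libraries at 0, 5, and 14 dpi and 288, 831, and 864 in the hypothyroid libraries. These markers chose the cells, so their level is given as a description: the 11 together stood at 33269 to 51988 CPM, and the monocyte, macrophage, and dendritic cell markers at 8.04 to 306 CPM. Muscle fibre RNA was uneven among them, with the 8 myocyte markers at 2155, 528, and 5745 CPM in control and 7077, 188, and 1697 CPM in hypothyroid libraries at 0, 5, and 14 dpi. Each gene was highest in FAP-like cells among the gated cell types with at least 20 cells in a library. This held in all 6 libraries, which makes 36 of 36 comparisons. Uninjured hypothyroid FAP-like cells were thus compared with endothelial-like, myogenic progenitor-like, and myocyte-like cells only, and mast-like cells were compared in no library. FAP-like cells held 93.2% (*Ugdh*) to 96.3% (*Ptx3*) of a gene's UMIs, while they held 54.6% of all UMIs and were 42.0% of cells. Within single libraries the share ran from 86.4% to 99.8%.

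**Figure D1:**
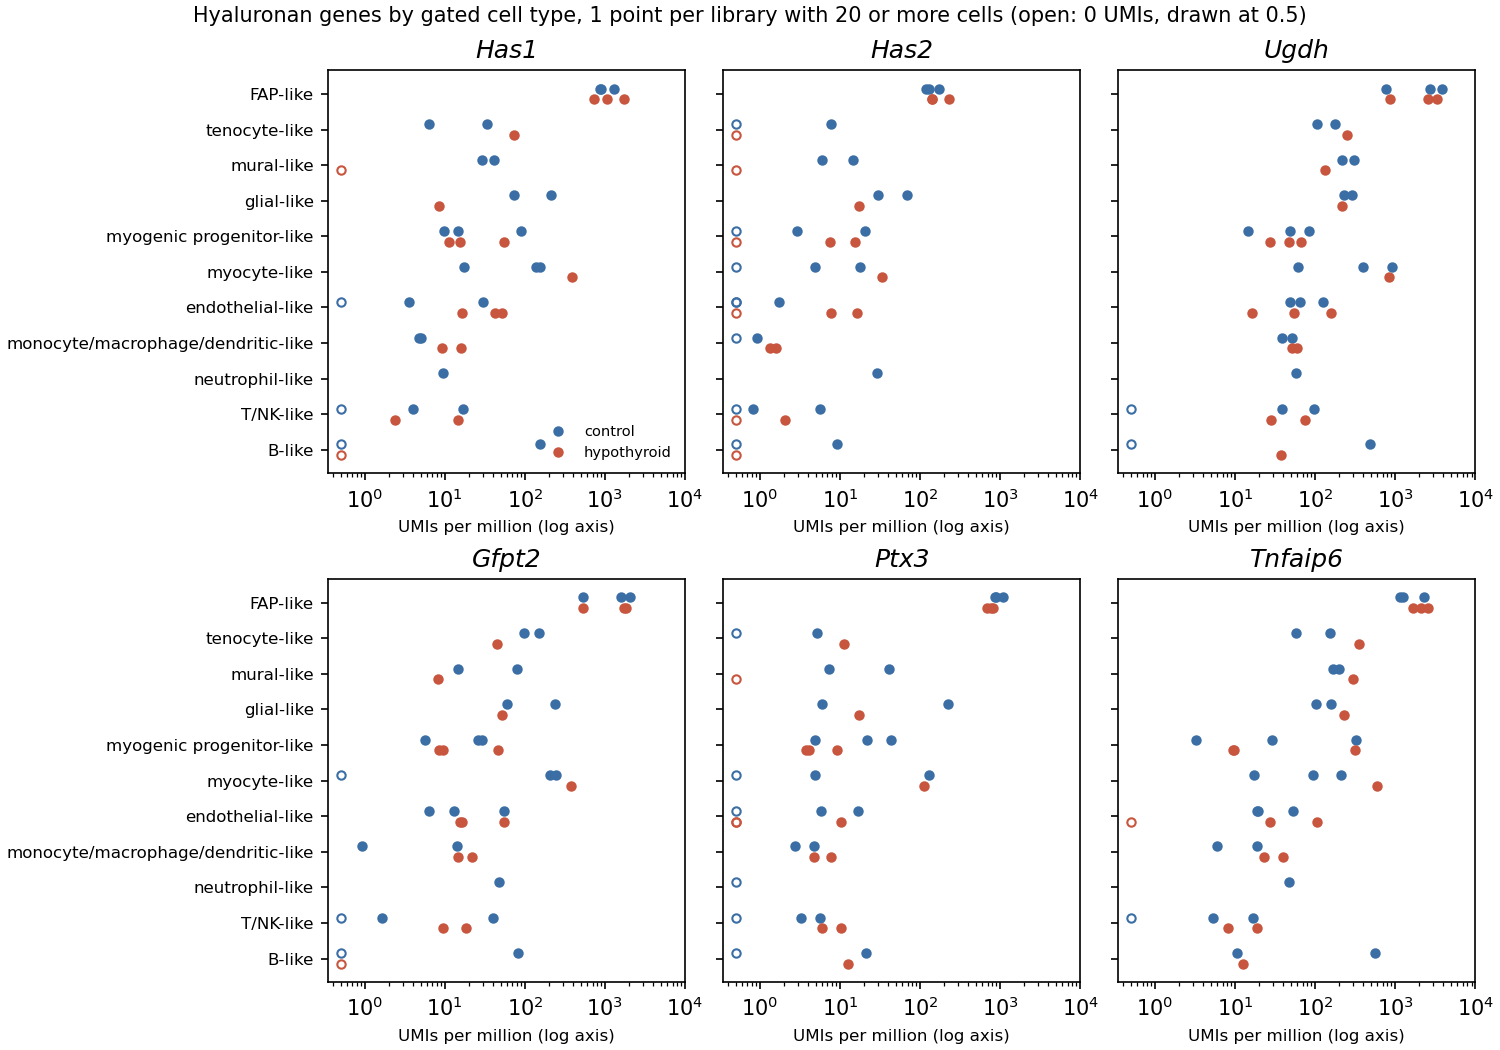
Levels of the 6 genes in CPM (log axis) by gated cell type, with 1 point for each library. Cell types with fewer than 20 cells in a library are left out. In each of the 6 panels the FAP-like points lie above those of every other gated cell type shown of the same library.

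Lower levels in other cells were read against FAP marker RNA in the same pools, because RNA set free by digestion reaches all droplets. In endothelial-like cells the 6 genes stood at 0% to 7.01% of their FAP-like level, and the median FAP marker at 0% to 3.41%. The largest endothelial-like pool, 595 cells of control TAM at 14 dpi, had *Has1* at 3.38%, *Ugdh* at 4.64%, *Gfpt2* at 3.51%, and *Tnfaip6* at 4.21%, above the highest FAP marker of that pool at 3.02%, but not *Has2* or *Ptx3*. In control TAM, *Has1* had 0 UMIs in endothelial-like cells at day 0 (a floor of 3 UMIs would be 19.3 CPM), and it stood at 3.53 CPM at 5 dpi and at 29.8 CPM at 14 dpi. *Has2* in endothelial-like cells was at 0 to 16.4 CPM over the libraries, far below every FAP-like level. Mural-like cells, with the markers of pericytes and vessel smooth muscle, had *Tnfaip6* at 167 CPM in control at 5 dpi, 199 CPM in control at 14 dpi, and 298 CPM in hypothyroid TAM at 14 dpi. These were 14.5% to 18.1% of the FAP-like level, whereas the median FAP marker in mural-like cells was at 1.82% to 3.35% of its FAP-like level. In both 14 dpi pools *Tnfaip6* was above the highest FAP marker, at 6.89% in control and 5.58% in hypothyroid TAM, but not in the 28 control cells at 5 dpi, where that marker was at 29.8%. *Ugdh* in the same mural-like pools stood at 217, 306, and 132 CPM, again in the order of control at 5 and 14 dpi and hypothyroid at 14 dpi.

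The same reading was made for other cell types. In glial-like cells, *Has2* was at 29.9 CPM in control at day 0, 68.9 CPM in control at 14 dpi (14 UMIs in 46 cells), and 17.2 CPM in hypothyroid TAM at 14 dpi. These were 25.1%, 39.7%, and 7.35% of the FAP-like level, and the highest FAP marker was at 48.6%, 15.3%, and 14.7%. *Has2* was thus above it in control at 14 dpi only. *Ptx3* in the same control cells at 14 dpi was also above it, at 20.8%. *Tnfaip6* in myogenic progenitor-like cells stood at 325 CPM in uninjured control and 315 CPM in uninjured hypothyroid TAM, and at 3.27 to 29.0 CPM at 5 and 14 dpi. The day 0 values were 14.1% and 12.3% of the FAP-like level, in 31 and 22 cells. The highest FAP marker was at 12.4% and 29.2%, and the median one at 0.630% and 1.40%. The hypothyroid value was thus above the median marker but below the highest, and its source was not tested. In macrophage-like cells at 5 dpi, 14.2% of 387 control cells and 20.4% of 641 hypothyroid cells had a *Ugdh* UMI, at median depths of 4917 and 6500 UMIs. T/NK-like cells of control TAM at 5 dpi had one in 14.5% of 591 cells at a median of 3086 UMIs. The macrophage share in control was thus at the level of another immune cell type. That type is no background floor, since its *Ugdh* stood at 5.09% of the FAP-like level, above its highest FAP marker at 0.848%. *Has1* was in 2.84% of control and 3.90% of hypothyroid macrophage-like cells and in 1.69% of those T/NK-like cells. *Tnfaip6* was in 2.58% of control and 10.3% of hypothyroid macrophage-like cells at 5 dpi. Its level there was 0.522% and 1.92% of the FAP-like level, and the median FAP marker was at 0.307% and 2.67%. It was thus above the median marker in control and below it in hypothyroid TAM. The source of the hypothyroid share was not tested. None of the 6 genes was above the highest FAP marker in either of these macrophage-like pools. In 35 B-like cells of uninjured control TAM, *Tnfaip6* was at 23.9%, *Ugdh* at 12.3%, and *Has1* at 12.0% of the FAP-like level. All of the 6 but *Ptx3* were above the highest FAP marker there, at 3.79%. None was in the B-like pools at 5 dpi. In uninjured myocyte-like cells of control TAM, only *Ugdh* was above it, at 23.5% against 13.5%. In those of hypothyroid TAM the 6 were at 14.6% to 25.2% and the highest marker at 25.3%. No source was tested.

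In the pooled sums, the precursor enzymes had the largest ratios over time of the 6 genes. In FAP-like cells *Ugdh* stood at 3893, 766, and 2731 CPM at 0, 5, and 14 dpi in control and at 3338, 855, and 2592 CPM in hypothyroid TAM. The 5 dpi value was the lowest of its diet in both, and the 14 dpi value lay between the others. From 0 to 5 dpi this was a ratio of 0.197 (0.190–0.203) in control and 0.256 (0.248–0.265) in hypothyroid TAM, and from 5 to 14 dpi of 3.57 (3.46–3.68) and 3.03 (2.96–3.10). *Gfpt2* had the same order, with 2045, 529, and 1585 CPM in control and 1828, 536, and 1717 CPM in hypothyroid TAM. Its ratio from 0 to 5 dpi was 0.259 (0.249–0.269) in control and 0.293 (0.280–0.307) in hypothyroid TAM. Its ratio from 5 to 14 dpi was 3.00 (2.88–3.11) in control and 3.20 (3.11–3.30) in hypothyroid TAM. With all columns of each file, the control ratios were no longer past 2-fold, at 0.543 and 1.75 for *Ugdh* and 0.577 and 1.63 for *Gfpt2*. Pooled sums of this kind do not tell fewer cells with a transcript from less RNA in each. Shares and means of cells thinned to equal depth are given further on.

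A gene was counted as past 2-fold when its ratio was at least 2 in either direction, its interval lay away from 1, and it had at least 20 UMIs in the pair of pools. All 6 genes had that many in every comparison. From 0 to 5 dpi, 3 of the 6 genes were past 2-fold lower in control (*Ugdh*, *Gfpt2*, and *Tnfaip6*), beside 12.0% of 11256 genes. In hypothyroid TAM 3 of 6 were (*Ugdh*, *Gfpt2*, and *Has1*), beside 20.6% of 11346 genes. From 5 to 14 dpi, *Ugdh* and *Gfpt2* were the 2 genes past 2-fold higher in each diet, beside 9.13% of all genes in control and 11.8% in hypothyroid TAM. *Ugdh* and *Gfpt2* lay at percentiles 2.07 and 3.18 of all genes in the control ratio from 0 to 5 dpi, and at 96.6 and 95.7 from 5 to 14 dpi. Between 0 and 14 dpi none of the 6 was past 2-fold in the pooled sums of either diet. Over all genes, 6.9% were higher and 4.5% lower in control, and 8.73% were higher and 15.9% lower in hypothyroid TAM. Ratios of *Has1* and *Tnfaip6* within states, given further on, were past 2-fold in both directions.

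The synthases moved less and differed from each other. *Has1* stood at 1302, 898, and 881 CPM at 0, 5, and 14 dpi in control and at 1719, 732, and 1056 CPM in hypothyroid TAM. This pooled level was highest uninjured in both diets, and its ratio from 0 to 5 dpi was 0.690 in control and 0.426 (0.408–0.445) in hypothyroid TAM. The hypothyroid ratio was not past 2-fold with size factors (0.598), all columns (0.668), or thinned cells (0.679). The median over FAP-like cells went the other way. It was 330, 568, and 531 CPM in control and 148, 418, and 726 CPM in hypothyroid TAM. The difference of mean log2 values from 0 to 5 dpi was 1.23 and 1.85. *Has2* stood at 119, 131, and 173 CPM in control and at 142, 142, and 234 CPM in hypothyroid TAM, so that the highest value was at 14 dpi in both. Its ratio from 0 to 14 dpi was 1.45 in control and 1.64 in hypothyroid TAM, the opposite direction from *Has1*, at 0.676 and 0.614.

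Of the matrix-binding genes, *Tnfaip6* was highest in uninjured muscle in the pooled sums, which did not hold under every setting in either diet. It stood at 2316, 1151, and 1251 CPM in control and at 2560, 2092, and 1648 CPM in hypothyroid TAM. From 0 to 5 dpi the ratio was 0.497 (0.482–0.512) in control and 0.817 in hypothyroid TAM, so 2-fold was passed narrowly in control, and without the cells that stood in 2 files the control ratio was 0.509 and did not pass. The hypothyroid ratio was above 1 with size factors, thinned cells, and all columns, at 1.15, 1.06, and 1.02, the last 2 with intervals that included 1. Whether the 2 diets differ in this ratio was not tested. The median of *Tnfaip6* over FAP-like cells was lowest uninjured in both diets. It was 456, 606, and 661 CPM in control and 537, 1062, and 941 CPM in hypothyroid TAM. Its difference of mean log2 values from 0 to 5 dpi was 1.06 in control and 1.80 in hypothyroid TAM. In the pooled sums *Ptx3* stayed within a narrower range. It stood at 863, 891, and 1090 CPM in control and 763, 691, and 820 CPM in hypothyroid TAM. Its pooled ratios between days ran from 0.905 to 1.26 over both diets, and ratios within states, given further on, were larger in *Smoc2* cells.

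**Figure D2:**
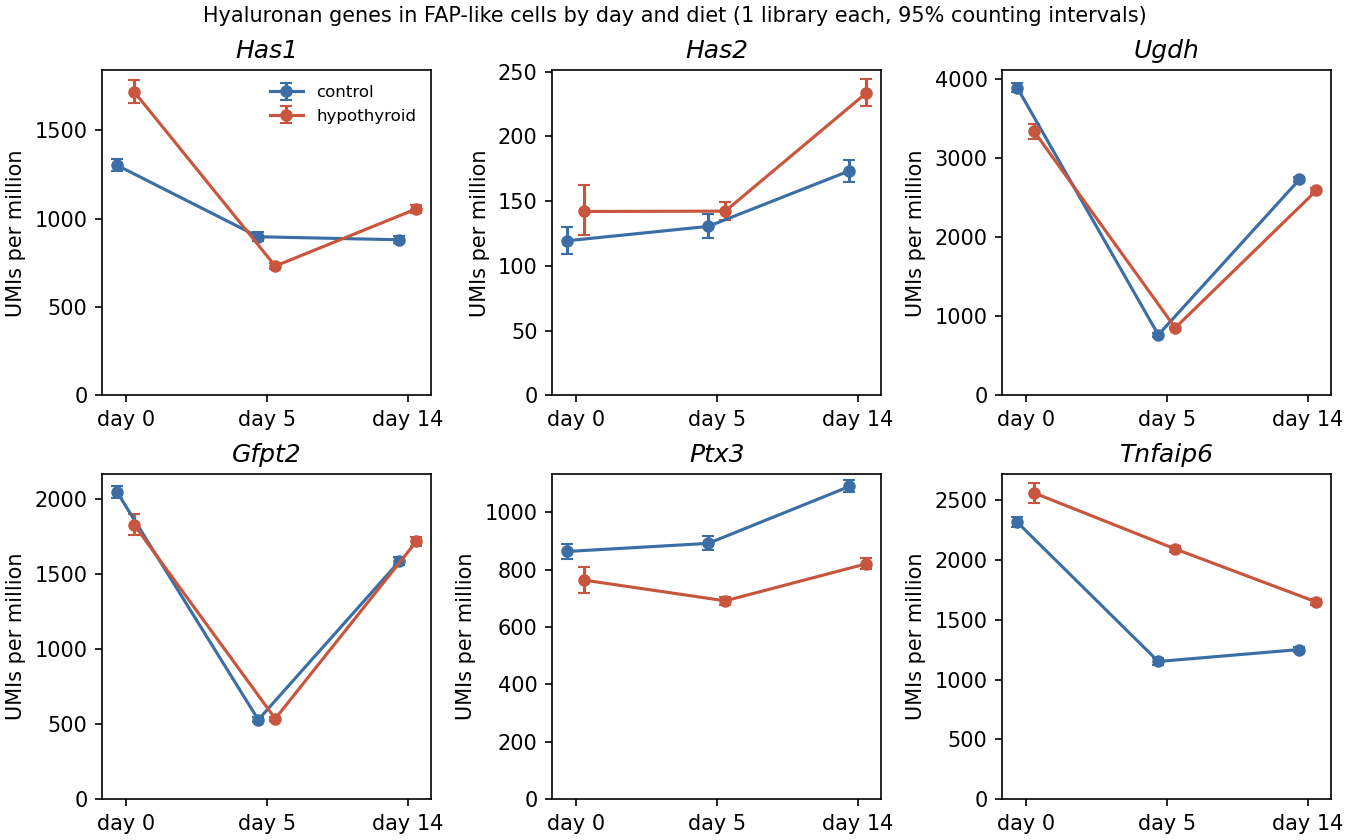
Levels in FAP-like cells in CPM against days after injury, with control and hypothyroid libraries as separate points joined by lines and bars for the 95% counting interval. *Ugdh* and *Gfpt2* are lowest at 5 dpi in both diets, and *Tnfaip6* at 5 dpi is 1151 CPM in control and 2092 CPM in hypothyroid TAM.

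No gene of the 6 differed 2-fold between the diets in FAP-like cells at any day, which makes 0 of 18 ratios. All 18 were computed, and across all genes 3.31% were past 2-fold higher and 2.62% lower in hypothyroid TAM at day 0, 2.84% and 10.2% at 5 dpi, and 1.29% and 6.71% at 14 dpi. The median gene was lower in hypothyroid FAP-like cells at 5 and 14 dpi, by a log2 ratio of -0.34 and -0.11, and at 0.01 at day 0. The values below are to be read beside that shift.

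The highest of the 18 ratios was that of *Tnfaip6* at 5 dpi. Its hypothyroid to control ratio was 1.11 (1.07–1.15) at day 0, 1.82 (1.77–1.87) at 5 dpi, and 1.32 (1.29–1.35) at 14 dpi. At 5 dpi this lay at percentile 96.1 of all genes. Without the cells that stood in 2 files the ratio at 5 dpi was 1.77 and that at 14 dpi was 1.09, since in hypothyroid TAM at 14 dpi *Tnfaip6* was at 1779 CPM in the 597 FAP-like cells that also stood in the control file and at 1359 CPM in the other 267. At 14 dpi, then, most of the excess lay in the cells that stood in 2 files. With pools scaled by size factors the 5 dpi ratio was 2.31.

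*Has1* was higher in hypothyroid TAM at day 0, at a ratio of 1.32 (1.26–1.38), lower at 5 dpi, at 0.815 (0.788–0.843), and higher at 14 dpi, at 1.20 (1.16–1.24). The 5 dpi ratio lay at percentile 53.4 of all genes, and under size factors it was on the other side of 1. *Has2* was higher in hypothyroid TAM at each day, at 1.19 (1.01–1.40), 1.09 (1.002–1.19), and 1.35 (1.26–1.44). The 14 dpi ratio lay at percentile 92.2, and the day 0 and 5 dpi intervals reached close to 1. *Ptx3* was the gene lower in hypothyroid TAM at all 3 days, at 0.884 (0.827–0.945), 0.775 (0.749–0.802), and 0.753 (0.730–0.776). Its percentiles were 33.3, 47.7, and 27.3, so it lay among genes of middle rank.

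The pooled diet ratios of the precursor enzymes were near 1. The hypothyroid to control ratio of *Ugdh* was 0.858 (0.831–0.885) at day 0, 1.12 (1.08–1.16) at 5 dpi, and 0.949 (0.932–0.966) at 14 dpi. That of *Gfpt2* was 0.894 (0.856–0.933), 1.01 (0.971–1.06), and 1.08 (1.06–1.11). With all columns the 5 dpi ratio was 0.591 for *Ugdh* and 0.575 for *Gfpt2*, and the ratios within states, given further on, lay on both sides of 1.

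**Figure D3:**
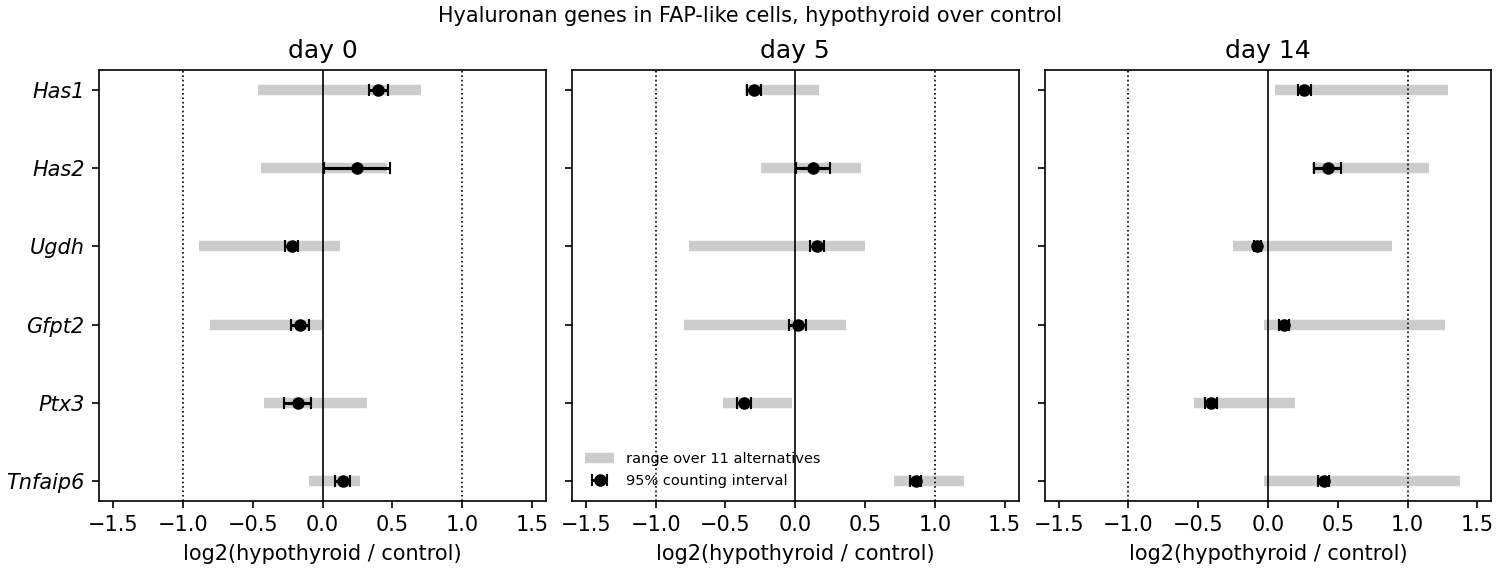
Hypothyroid to control log2 ratio of each gene in FAP-like cells at day 0, 5, and 14, with the 95% counting interval (black) and the range over 11 alternative settings (grey). Dotted lines mark 2-fold; *Tnfaip6* at 5 dpi is above 0 over the whole grey range, from 0.71 to 1.21, and *Ptx3* at 5 dpi below it, from -0.52 to -0.02.

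The mean over cells hides how the UMIs were spread among them, so each FAP-like cell was thinned to 2000 UMIs and the share of cells with at least 1 UMI of a gene was taken. *Ptx3* was held by few cells: the 10% of cells with most of it held 81.2%, 57.4%, and 58.4% of its UMIs in control and 88.1%, 67.8%, and 63.0% in hypothyroid TAM at 0, 5, and 14 dpi. *Ptx3* was found in 23.5%, 39.2%, and 40.3% of thinned control cells and in 19.2%, 33.8%, and 37.9% of thinned hypothyroid cells. Its mean in the same thinned cells was 1.20, 1.56, and 1.98 UMIs in control and 1.11, 1.29, and 1.63 UMIs in hypothyroid TAM. Both the share of cells and this mean were higher after injury. For *Gfpt2* the top 10% held 31.3% to 48.7%. For *Has2* they held 57.0% to 69.9%, more than for *Ptx3* in control at 5 and 14 dpi.

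*Has2* was detected in 16.6%, 18.5%, and 23.5% of thinned control cells, and in 53 of 265, 20.1%, and 29.5% of thinned hypothyroid cells. Its share was highest at 14 dpi in both diets, as was its CPM. *Has1* was in 52.3%, 55.9%, and 62.0% of thinned control cells and in 47.2%, 58.1%, and 67.9% of thinned hypothyroid cells, and in 56.8%, 72.8%, and 72.1% and 51.0%, 78.0%, and 84.5% without thinning. *Has1* therefore stood lower in CPM at 5 dpi than at day 0 but in no smaller share of cells. *Ugdh* was in 67.9%, 53.8%, and 77.2% of control and 62.6%, 47.9%, and 81.3% of hypothyroid cells. *Gfpt2* was in 74.0%, 44.1%, and 72.8% and in 69.1%, 47.5%, and 79.8%. For both precursor enzymes the 5 dpi share was the lowest of its diet, as was the CPM. The mean of *Ugdh* in thinned cells was 6.16, 1.73, and 4.89 UMIs in control and 4.77, 1.71, and 4.97 in hypothyroid TAM. That of *Gfpt2* was 3.35, 1.13, and 2.94 UMIs in control and 3.04, 1.14, and 3.41 in hypothyroid TAM. *Tnfaip6* was in 57.9%, 62.1%, and 67.4% of control and in 58.9%, 71.6%, and 74.2% of hypothyroid cells.

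Pairs of the genes differed in how far they shared cells. Over thinned FAP-like cells of single libraries, the counts of *Ugdh* and *Gfpt2* correlated with Pearson's r of 0.396 to 0.672. For *Has1* and *Tnfaip6* r was 0.296 to 0.472, and for *Has1* and *Has2* it was 0.044 to 0.10. No pair with *Has2* was above 0.160, and the lowest values were -0.048 with *Ptx3* and -0.026 with *Tnfaip6*. Cells of 1 library share its depth and preparation, and these values are descriptions with no test. None of the 6 was detected in 5.26% to 12.3% of thinned cells of a library, and all 6 in 3.40% to 7.96%.

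FAP-like cells with at least 2000 UMIs were then split by state, 682, 390, and 1321 in control and 265, 775, and 817 in hypothyroid TAM. Cells with *Pi16* or *Dpp4*, markers of the adventitial progenitor type, were set beside cells with *Smoc2* but neither of these, the interstitial type, and beside cells with none of these but with *Cthrc1*, *Tnc*, or *Lrrc15*, which mark matrix-producing fibroblasts after injury. *Ptx3* was higher in *Pi16* or *Dpp4* cells than in *Smoc2* cells in all 6 libraries, by 7.26, 3.16, and 4.27 times in control and 5.71, 2.14, and 4.19 times in hypothyroid TAM at 0, 5, and 14 dpi. *Ugdh* was higher there in all 6 as well, by 2.08, 3.22, and 1.88 times in control and 2.91, 2.86, and 1.22 times in hypothyroid TAM. *Gfpt2* was higher by 1.31 to 3.41 times in all 6. *Has1* was higher at 0 and 5 dpi, by 2.71 and 1.44 times in control and 4.36 and 2.36 times in hypothyroid TAM, but not at 14 dpi, where the ratio was 0.939 and 0.895. *Tnfaip6* was higher in 5 of 6 libraries, with ratios from 0.840 to 3.24, and *Has2* in 5 of 6, from 0.883 to 1.51, with intervals that included 1 in 3 libraries. The contrast does not set *Pi16* or *Dpp4* cells above all others: in control TAM at day 0, cells with none of the state markers were higher than they were for each of the 6 genes, as for *Ptx3* at 1315 against 1221 CPM and *Tnfaip6* at 3745 against 2806 CPM. In *Cthrc1*, *Tnc*, or *Lrrc15* cells at 5 dpi, control and hypothyroid TAM had 446 and 541 CPM of *Ptx3* and 606 and 726 CPM of *Ugdh*.

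**Figure D4:**
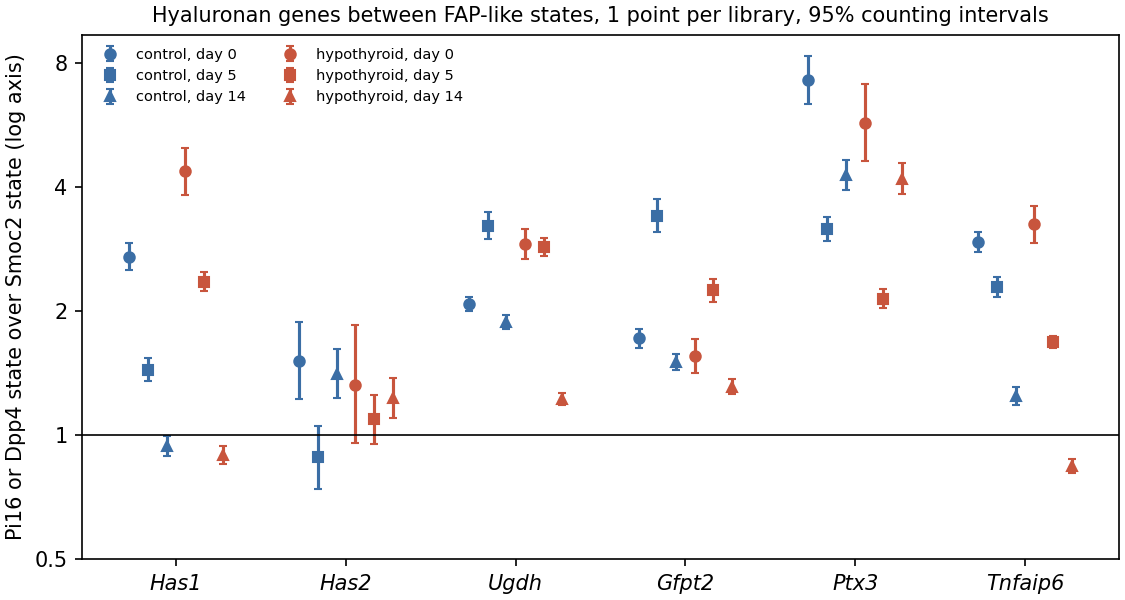
Ratio of the level in *Pi16* or *Dpp4* cells to that in *Smoc2* cells (log axis), with 1 point for each library and bars for the 95% counting interval. *Ptx3*, *Ugdh*, and *Gfpt2* are above 1 in all 6 libraries, and *Has1* is below 1 at 14 dpi in both diets.

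State shares themselves differed between libraries. *Pi16* or *Dpp4* cells were 40.8%, 32.1%, and 61.9% of control and 47.2%, 24.0%, and 54.8% of hypothyroid FAP-like cells with at least 2000 UMIs at 0, 5, and 14 dpi. Cells of the *Cthrc1*, *Tnc*, or *Lrrc15* state were 25.9% of control and 35.9% of hypothyroid cells so counted at 5 dpi. Within states, the lower *Ugdh* level at 5 dpi was present in both: from 0 to 5 dpi its ratio was 0.284 in control and 0.402 in hypothyroid *Pi16* or *Dpp4* cells, and 0.183 and 0.409 in *Smoc2* cells. *Gfpt2* had ratios of 0.40 and 0.450 in *Pi16* or *Dpp4* cells and 0.201 and 0.312 in *Smoc2* cells. *Tnfaip6* did not move alike, with 0.661 and 1.02 in *Pi16* or *Dpp4* cells and 0.850 and 1.97 in *Smoc2* cells. *Has1* in *Smoc2* cells was at 1.30 in control and 1.03 in hypothyroid TAM, against 0.695 and 0.554 in *Pi16* or *Dpp4* cells. *Ptx3* was at 3.24 and 2.85 in *Smoc2* cells and at 1.41 and 1.07 in *Pi16* or *Dpp4* cells. From 5 to 14 dpi its ratio was 0.594 in control and 0.484 in hypothyroid *Smoc2* cells, and 0.803 and 0.946 in *Pi16* or *Dpp4* cells. From 0 to 14 dpi the ratio of *Tnfaip6* was 1.11 in control and 2.06 in hypothyroid *Smoc2* cells, and 0.468 and 0.533 in *Pi16* or *Dpp4* cells. That of *Has1* was 1.52 and 2.14 in *Smoc2* cells, and 0.528 and 0.438 in *Pi16* or *Dpp4* cells.

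The diet ratio of *Tnfaip6* at 5 dpi was above 1 in each state, at 1.59 in *Pi16* or *Dpp4* cells, 2.16 in *Smoc2* cells, 2.25 in *Cthrc1*, *Tnc*, or *Lrrc15* cells, and 1.58 in cells with none of these markers. At day 0 it was 1.03 in *Pi16* or *Dpp4* cells and 0.933 in *Smoc2* cells, but 1.53 in cells with none of the markers. The lower *Ptx3* of hypothyroid TAM at 5 dpi was present in *Pi16* or *Dpp4* cells, at 0.708, and in cells with no marker, at 0.555, but not in *Smoc2* cells, at 1.04, or in *Cthrc1*, *Tnc*, or *Lrrc15* cells, at 1.21. The *Has1* ratio at 5 dpi was 1.13 in *Pi16* or *Dpp4* cells, 0.694 in *Smoc2* cells, and 0.811 in *Cthrc1*, *Tnc*, or *Lrrc15* cells. The *Ugdh* ratio in *Smoc2* cells was 0.614, 1.37, and 1.35 at 0, 5, and 14 dpi. That of *Gfpt2* at 5 dpi was 1.47 in *Smoc2* cells and 0.546 in cells with none of the markers, and at 14 dpi it was 0.640 in *Cthrc1*, *Tnc*, or *Lrrc15* cells.

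The rest of the hyaluronan pathway was taken from a list of 44 genes, of which 29 had values and 23 were not among the 6. The others of the list, such as *Has3* and *Acan*, are not analysed here. From 0 to 5 dpi, 5 of the 22 of these with enough UMIs were past 2-fold higher and 4 lower in control, beside 20.6% and 12.0% of all genes, and 4 higher and 6 lower in hypothyroid TAM, beside 14.4% and 20.6%. These counts were near the shares over all genes. Their median ratio was 1.39 beside 1.08 for all genes in control, and 0.877 beside 0.858 in hypothyroid TAM. Enzymes on the same supply routes as *Ugdh* and *Gfpt2* were on both sides. *Ugp2*, which makes the UDP-glucose that UGDH oxidizes, stood at 976, 308, and 747 CPM in control and 872, 296, and 530 CPM in hypothyroid TAM. *Uap1*, which makes UDP-N-acetylglucosamine in the last step of its route, stood at 1718, 564, and 629 CPM in control and 1576, 437, and 654 CPM in hypothyroid TAM. Unlike *Ugdh*, *Uap1* remained low at 14 dpi, at a ratio to day 0 of 0.366 in control and 0.415 in hypothyroid TAM. From 5 to 14 dpi, 3 of the 22 were past 2-fold higher and 4 lower in control, where *Ugp2* was at 2.42 and *Pgm2* at 2.23, and 4 higher and 2 lower in hypothyroid TAM, where *Ugp2* was at 1.79 and *Pgm2* at 2.39, beside 9.13% higher and 16.6% lower over all genes in control and 11.8% and 15.9% in hypothyroid TAM. *Pgm2*, a sugar phosphate mutase, was at 0.442 in control and 0.656 in hypothyroid TAM from 0 to 5 dpi. *Gfpt1* and *Pgm3* of the hexosamine route were not lower, at 1.35 and 1.46 in control and 1.01 and 1.28 in hypothyroid TAM. On the UDP-glucuronic acid route, *Pgm1* was at 1.71 in control and 0.911 in hypothyroid TAM, and *Uxs1*, which turns UDP-glucuronic acid into UDP-xylose, at 1.75 and 1.72.

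**Figure D5:**
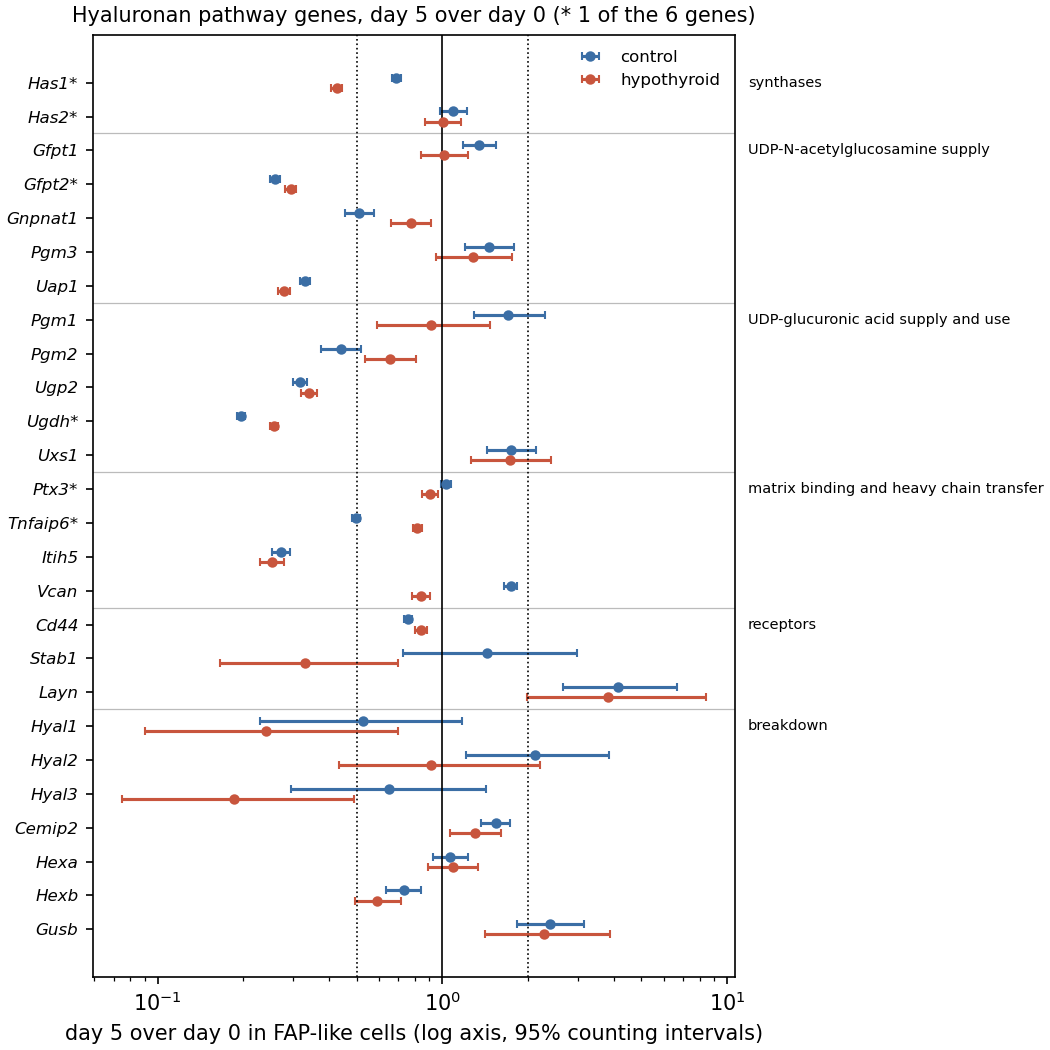
Ratio of day 5 to day 0 in FAP-like cells (log axis, 95% counting intervals) for 26 genes of the pathway, by role, in control and hypothyroid TAM; dotted lines mark 2-fold and asterisks the 6 genes. *Ugdh*, *Gfpt2*, *Uap1*, *Ugp2*, and *Itih5* are left of the lower line in both diets, and *Layn* and *Gusb* are right of the upper one.

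Among the binding proteins, *Itih5*, which encodes a heavy chain of the inter-alpha-inhibitor family, stood at 629, 171, and 667 CPM in control and 405, 102, and 375 CPM in hypothyroid TAM. It was lowest at 5 dpi in both diets, as was *Ugdh*, with ratios from 5 to 14 dpi of 3.90 and 3.66. Its diet ratio was below 1 at each day, at 0.645, 0.599, and 0.561. *Vcan*, the large hyaluronan-binding proteoglycan versican, stood at 455, 792, and 530 CPM in control and 584, 492, and 522 CPM in hypothyroid TAM, with the highest value at 5 dpi in control and the lowest at 5 dpi in hypothyroid TAM. The receptor *Cd44* was at 1560, 1182, and 1847 CPM in control and 1353, 1141, and 2149 CPM in hypothyroid FAP-like cells, lowest at 5 dpi in both. The receptor gene *Layn* was past 2-fold higher from 0 to 5 dpi in both diets, at 4.13 and 3.82. So was *Gusb*, encoding the lysosomal beta-glucuronidase, at 2.38 and 2.27. *Hyal2*, a hyaluronidase, was at 2.11 in control. In hypothyroid TAM *Stab1*, *Hyal1*, and *Hyal3* were past 2-fold lower from 0 to 5 dpi, at 0.329, 0.239, and 0.186, on few UMIs. *Hyal1* and *Hyal3* overlap in the genome, so reads could have been split between them. *Hmmr*, a receptor gene that is also a cell cycle gene, had 0, 232, and 0 UMIs in control and 0, 296, and 2 in hypothyroid FAP-like cells. *Cemip*, which encodes a hyaluronan-degrading protein, had 2, 58, and 1 and 0, 68, and 4 UMIs. Against day 0, *Layn* remained past 2-fold higher at 14 dpi in both diets, at 3.30 and 4.08, *Stab1* was at 2.84 in control, *Hyal3* at 0.455 in control, and *Cemip2*, which encodes another hyaluronidase, at 2.67 in hypothyroid TAM.

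Between diets, the other pathway genes past 2-fold were 1 of 20 at day 0, 0 of 22 at 5 dpi, and 2 of 20 at 14 dpi. Over all genes, 3.31% were higher and 2.62% lower at day 0, 2.84% and 10.2% at 5 dpi, and 1.29% and 6.71% at 14 dpi, and with counts this small nothing is read from the difference. The genes were the scavenger receptor gene *Stab1*, higher at 2.58 (1.09–6.02) at day 0, and *Pgm1* and *Hyal1*, lower at 0.470 and 0.393 at 14 dpi. Without the cells that stood in 2 files, *Pgm1* was at 0.522 and *Hyal1* at 0.756, and neither passed. Receptors were also read outside FAP-like cells. *Lyve1*, a receptor of lymphatic vessels, in endothelial-like cells stood at 174, 27.1, and 50.0 CPM in control and 149, 0, and 5.2 CPM in hypothyroid TAM. These pools held 85, 129, and 595 control cells and 24, 32, and 234 hypothyroid cells. Nothing is read from the difference between diets. *Cd44* in macrophage-like cells stood at 785 and 957 CPM at 5 and 14 dpi in control and 586 and 753 CPM in hypothyroid TAM.

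Other gene groups were read in the same cells. The 6 genes summed had a diet ratio of 0.982, 1.16, and 1.05 at 0, 5, and 14 dpi. Inflammatory stromal genes, a list of 10 cytokines, adhesion genes, and NF-κB targets such as *Il6* and *Cxcl1*, summed to 23251, 12556, and 25013 CPM in control and 21205, 34038, and 43852 CPM in hypothyroid FAP-like cells. Their diet ratio was 0.912, 2.71, and 1.75 at 0, 5, and 14 dpi, above 1 on the same days as the larger *Tnfaip6* ratios. At 5 dpi 4 of the 10, all chemokine genes, were past 2-fold higher (*Ccl2* at 3.79, *Cxcl1* at 2.66, *Ccl7* at 2.63, and *Cxcl2* at 2.26) and 0 lower, the median gene was at 1.28, *Il6* at 1.11, and *Nfkbia*, *Nfkbiz*, *Tnfaip3*, and *Lif* were below 1. Immediate early and dissociation stress genes such as *Fos* and *Jun*, which digestion itself can induce, summed to 8545, 7792, and 7259 CPM in control and 12274, 6293, and 5465 CPM in hypothyroid TAM, a diet ratio of 1.44, 0.808, and 0.753. *Has1* was above 1 on the first day and below 1 on the second, as these were, but not on the last. The summed FAP markers had a diet ratio of 0.946, 0.740, and 0.784. The part of any of these in the levels above was not tested. Muscle fibre RNA was highest in the uninjured hypothyroid and the 14 dpi control libraries. In FAP-like cells low in it, the diet ratios of *Ugdh* and *Ptx3* at day 0 were above 1, on the other side from the values in all FAP-like cells. Their log2 ratios there were 0.12 and 0.32.

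Over 27 pools of library and gated cell type, in 9 types, the genes with the most similar levels were other FAP genes. The measure was Pearson's r of log2(CPM + 1) among 12353 genes, and pools of 1 library share its depth. For *Has1* these were *Smoc2* (0.955), *Dpt* (0.944), and *Tnxb* (0.944), and for *Gfpt2* they were *Tnxb* (0.961), *Clec3b* (0.959), and *Smoc2* (0.956). For *Has2* they were *Osr2* (0.935), *Slc4a4* (0.932), and *Dcbld2* (0.923), and for *Ugdh* *Abca8a* (0.904), *Smoc2* (0.901), and *Serping1* (0.901). *Ptx3* was most like *Col14a1* (0.913), *Sbsn* (0.911), and *Mfap5* (0.904), and *Tnfaip6* most like *C1ra* (0.940), *Slit3* (0.939), and *Abca8a* (0.931). Between the 6 themselves r ran from 0.734 for *Ugdh* with *Ptx3* to 0.946 for *Has1* with *Gfpt2*. FAP markers, *Dpt* and *Clec3b* among them, had chosen the FAP-like pools, and the 6 genes lay mainly there. High r with genes of FAP-like cells was therefore largely set in advance and is a description only.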

How the data were processed

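Single-cell RNA was read by droplet 3′ sequencing (10x, version 3 chemistry). The authors aligned reads in Partek Flow v11.0 with the Cell Ranger aligner to mm39 and counted them with GENCODE M30, left out cells by UMI count, gene count, and share of mitochondrial RNA, and deposited log2(CPM + 1) values per cell. In every cell the commonest nonzero value was taken as 1 UMI, which made 99.93% of values whole numbers within 0.02 times the square root of the UMIs. First-run cells held 479 to 49806 UMIs and 115 to 6674 genes. In all, 3360 of 11207 exceeded the limit of 8000 UMIs printed in the study's methods, so 7847 would remain. The printed limits on UMIs and genes may have been exchanged, which could not be checked. The other 9062 columns are of unknown condition and entered only an alternative and the flagged values.

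Each cell took the marker list with the highest score, and cells below a minimum or without a lead of 0.1 stayed ungated. The markers were listed before the scoring rule, which was set after values had been seen. In all 50 FAP-like cells lay near the cut and 1436 cells had no class. Doublets were kept. UMIs were summed per library and cell type, with exact Poisson intervals for levels, exact binomial intervals for ratios, and Clopper-Pearson intervals for shares. With 1 library per group, no test was run between conditions. The call rule was tried on counts simulated with counting error alone, so the outcome does not cover differences between mice or libraries. For hypothyroid over control it called 100% of genes changed 4-fold at each day. At 0, 5, and 14 dpi it called 95%, 99%, and 98% of genes changed 2.5-fold. Of unchanged genes it called 1.098%, 0.388%, and 0.417%. The 6 genes, the lists, and the rule for naming were chosen with earlier results of these data known. All 6 were named, as were pathway genes past 2-fold and the 3 genes most like each; *Vcan*, *Cd44*, *Gfpt1*, *Pgm3*, *Uxs1*, *Lyve1*, and the stress and inflammatory genes were named beyond that rule, after their values were seen. Alternatives were all columns, a stricter gate, graph-based clusters, the smallest value as 1 UMI, size factors, the mean of log values, no top 1% of cells, no likely doublets, thinning, and, chosen after seeing the data, cells low in muscle fibre RNA and no cells that stood in 2 files. Python 3.11.15, numpy 2.4.6, scipy 1.17.1, pandas 2.3.3, scikit-learn 1.9.0, igraph 0.11.9, leidenalg 0.10.2, and matplotlib 3.10.9 were used.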

Additional observations from a re-analysis of the deposited data

Results flagged for a closer look

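In FAP-like cells, 6 contrasts had intervals on opposite sides of 1 in different libraries. No difference between these ratios was tested, since each rests on 1 library per group. The hypothyroid to control ratio of *Has1* was above 1 at day 0 and below 1 at 5 dpi, and the ratio of the 5 dpi to the day 0 value was 0.618. From 5 to 14 dpi it crossed back, by 1.47. The same ratio of *Ugdh* was below 1 at day 0, above 1 at 5 dpi, and below 1 at 14 dpi, with a 5 dpi to day 0 value of 1.30 and a 14 to 5 dpi value of 0.850. For *Gfpt2* it was below 1 at day 0 and above 1 at 14 dpi, with a ratio of these of 1.21. *Tnfaip6* had a 14 to 5 dpi ratio of 1.09 in control and 0.788 in hypothyroid TAM, and the hypothyroid ratio over the control one was 0.725.

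Later columns that were not copies of first-run cells entered no comparison. In 3 cases their FAP-like level was above that of every control first run. *Has2* stood at 195 CPM in 1138 FAP-like cells of the control 5 dpi file and at 198 CPM in 1612 of the control 14 dpi file, beside a highest control level of 173 CPM. *Ptx3* stood at 1132 CPM in the later columns of the control 5 dpi file, beside 1090 CPM. The condition of these cells is not known.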

How the results depend on the processing

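No ratio between diets was past 2-fold in the values reported, and 1 was under size factors (*Tnfaip6* at 5 dpi, 2.31) and 4 by the difference of mean log2(CPM + 1). Of 24 ratios between successive days, 10 were past 2-fold, against 4 with all columns of each file. Shares of cells over 50% numbered 20 of 36 at 2000 UMIs and 10 at 1000. Other pathway genes past 2-fold numbered 3 between diets, 1 without the cells that stood in 2 files, and 32 between days, against 20 with all columns. The count of 36 levels highest in FAP-like cells was the same under the stricter gate and the mean of log values. Of the single diet ratios under alternatives, 117 stayed within the reported interval, 64 moved outside it, and 17 changed side, and for ratios between days these were 64, 87, and 17. The cause was not tested. *Tnfaip6* between diets at 5 dpi ran from 0.71 to 1.21 (log2) over 11 alternatives.

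The log2 ratios that changed side were as follows. With all columns, the hypothyroid to control value was -0.44 for *Has2* and -0.10 for *Tnfaip6* at day 0, -0.25 for *Has2* and -0.76 for *Ugdh* at 5 dpi, and -0.0304 for *Gfpt2* and -0.029 for *Tnfaip6* at 14 dpi. The control 14 to 5 dpi value of *Ptx3* was -0.0491 and the hypothyroid 5 to 0 dpi value of *Tnfaip6* was 0.0239. In cells low in muscle fibre RNA, the day 0 diet value was 0.12 for *Ugdh* and 0.32 for *Ptx3*. By size factors, the 5 dpi diet value of *Has1* was 0.0503, and the hypothyroid 5 to 0 dpi value was 0.35 for *Ptx3* and 0.20 for *Tnfaip6*. Under the stricter gate that of *Ptx3* was 0.15. Thinned to 2000 UMIs, the diet value of *Ugdh* was -0.0187 at 5 dpi and 0.0218 at 14 dpi, and the hypothyroid 5 to 0 dpi value was 0.22 for *Ptx3* and 0.0774 for *Tnfaip6*. By the difference of mean log2 values, the diet value was -0.46 for *Has1* and -0.16 for *Has2* at day 0, 0.17 for *Has1* and -0.52 for *Ugdh* at 5 dpi, and 0.89 for *Ugdh* and 0.19 for *Ptx3* at 14 dpi. By that measure the 5 to 0 dpi value was 1.23 for *Has1* and 1.06 for *Tnfaip6* in control, and 1.85 for *Has1*, 2.55 for *Ptx3*, and 1.80 for *Tnfaip6* in hypothyroid TAM. The 14 to 5 dpi value was -0.52 for *Has2*, -0.78 for *Ptx3*, and -0.27 for *Tnfaip6* in control, and -0.0671 for *Ptx3* and 0.27 for *Tnfaip6* in hypothyroid TAM. FAP-like cells had a median of 13118 UMIs in control and 14054 in hypothyroid TAM at 5 dpi against 5618 and 4486 at day 0. No paired analysis was possible because each group was 1 library, and no library could be left out.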
